A study of Mus musculus with 6 samples.

Results

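The 10 genes described here encode proteins that marrow stromal cells and other mesenchymal cells secrete or display: Sparc, Ccn2, Cxcl12, Kitl, Lepr, Col1a1, Col1a2, Col3a1, Igfbp5 and Bgn. They were chosen as known stromal and matrix genes, and Sparc and Ccn2 were chosen by their measured values: both were higher in the CD38 pos library of every pair. They are 10 of the 49585 Ensembl genes in the count tables, matched by identifier. All 10 passed the filter on low counts and are among the 14785 genes tested.

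RNA was sequenced from 6 pools of mouse haematopoietic stem cells (HSCs), the marrow cells that renew the blood. Every pool held sorted cells of 10 untreated C57BL/6 mice aged 8 to 16 weeks. The sort kept marrow cells that were Lin-, Kit+, Sca-1+, CD48-, CD150+, CD34- and CD201+, and then separated them by surface CD38, an enzyme that consumes NAD, into CD38hi cells (labelled CD38 pos, 3 libraries) and CD38lo cells (labelled CD38 neg, 3 libraries). The design text matches each CD38 pos library with a CD38 neg library as pair 1, pair 2 or pair 3, and no genotype or treatment differed between the groups.

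HSCs live next to perivascular stromal cells, which carry the leptin receptor (Lepr) and secrete the chemokine CXCL12 and the KIT ligand (Kitl). CXCL12 holds HSCs in the marrow through the receptor CXCR4, and KIT ligand maintains them through KIT. Fibrillar collagens, small proteoglycans such as biglycan (Bgn), and matricellular proteins, which sit in the matrix and modulate cell behaviour without building it, make up the surroundings of these cells. SPARC binds collagen and CCN2 (connective tissue growth factor) is a textbook target of the mechanosensitive factors YAP and TEAD. In textbook accounts HSCs themselves are not the main source of these transcripts, although SPARC is also abundant in platelets and CCN2 in vascular cells.

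Library totals lay between 16771180 and 18558610 counts. With totals scaled as given below, 3 counts, the upper limit that a count of 0 allows, equal 0.166 to 0.183 CPM (counts relative to the scaled total, on the usual scale). That limit covers counting error only. More genes had a count in the CD38 pos than in the CD38 neg library of each pair. The numbers were 21733 and 21490 in pair 1, 21115 and 20805 in pair 2, and 21244 and 19998 in pair 3. All 14 HSC markers listed (Kit, Meis1, Procr and others) had counts in every library, and so did all 14 granulocyte and monocyte markers, whose summed level was 80269 to 177434 CPM. Of 26 stromal, bone and pericyte markers other than the 10 genes, 14 passed the filter, and levels were mixed. Over the CD38 pos and CD38 neg libraries, Pdgfra, a receptor of mesenchymal cells, had 7 and 11 counts, and the stromal transcription factors Foxc1 and Ebf3 had 7 and 3 and 6 and 5. The pericyte receptor Pdgfrb had 304 and 249 counts, Ibsp 515 and 345, Adipoq 215 and 125, and Vcam1, which blood cells also express, 18787 and 12465. Levels below are CPM with library totals scaled by TMM, edgeR's trimmed-mean normalization, and differences are log2 values of CD38 pos minus CD38 neg.

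Sparc was present in all 6 libraries and its groups did not overlap. The CD38 pos libraries of pairs 1, 2 and 3 held 15.2, 7.47 and 9.05 CPM (253, 132 and 164 counts). Their CD38 neg partners held 7.03, 1.39 and 2.14 CPM (118, 25 and 35 counts). The lowest CD38 pos library thus lay just above the highest CD38 neg library, and within each pair the gap was wider, at 1.10, 2.33 and 2.02 on the log2 scale. The group means were 10.6 ± 4.07 CPM (SD, n = 3) and 3.52 ± 3.06 CPM (SD, n = 3), and the fitted difference was 1.82 (SE 0.33). Since Sparc was picked for this difference, these values are a description and carry no test. In bulk libraries, fewer cells of a type and less RNA per cell cannot be told apart.

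The gene lies on GRCm38 chromosome 11, 55394500 to 55423183, minus strand, with no other annotated gene over it, and its RefSeq start lies inside that span. The promoter tables of RefSeq (GRCm38.p6) matched 8 of the 10 genes, all but Ccn2 and Col1a1. Sparc, which was chosen for its higher values in CD38 pos, is shown by the 250 bases before its RefSeq start (chr11:55420081-55420330, minus strand), all in lower case because none of the 5 motifs searched is in it:
Sparc: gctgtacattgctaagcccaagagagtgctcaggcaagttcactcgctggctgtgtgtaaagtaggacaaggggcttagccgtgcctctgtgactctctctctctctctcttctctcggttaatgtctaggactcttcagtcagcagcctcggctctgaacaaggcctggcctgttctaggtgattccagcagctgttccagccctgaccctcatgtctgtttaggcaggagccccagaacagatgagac
The motifs were searched on both strands: the TATA box TATAAA, the CCAAT box CCAAT, the TEAD core GGAATG, the AP-1 site TGANTCA and the GC box GGGCGG. They were found in 12.4%, 33.8%, 12.6%, 6.75% and 32.7% of 32851 RefSeq promoter windows of the same length. No match says only that these letters are not in this window.

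Ccn2 was found in every CD38 pos library and in no CD38 neg library. It had 22, 19 and 33 counts in the CD38 pos libraries of pairs 1, 2 and 3, or 1.32, 1.07 and 1.82 CPM, and 0 counts in each CD38 neg library. Set against a floor of 3 counts per CD38 neg library, Ccn2 was at least 7.38-fold higher in pair 1, at least 6.45-fold higher in pair 2 and at least 9.93-fold higher in pair 3. Over the group means the bound was at least 7.97-fold higher. These bounds take the CD38 pos counts as measured and leave out their counting error, so the true limits are lower. Ccn2 passed the filter on low counts only through the CD38 pos libraries, and it was chosen for this pattern, so no test is given. The gene lies on chromosome 10, 24595442 to 24598683, plus strand, and an antisense gene over it, Gm15270, had 7 counts in the 6 libraries.

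**Figure D1:**
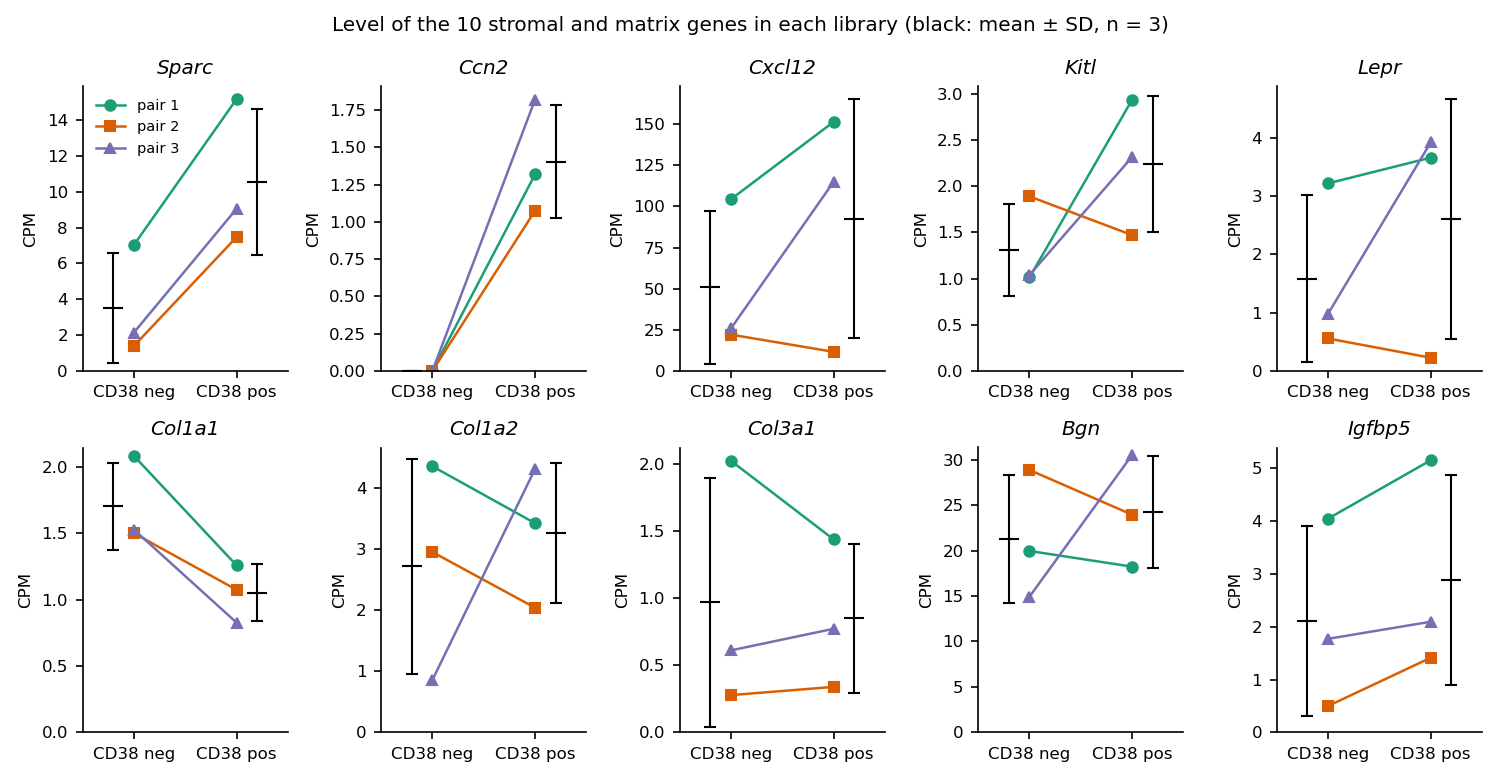
Level of each of the 10 genes in CPM (vertical axes, each from 0) in the CD38 neg and CD38 pos library of pairs 1, 2 and 3, joined by lines, with the mean ± SD of each group (n = 3) in black. Sparc is higher in CD38 pos in every line, Ccn2 starts from 0 in every line, Col1a1 is lower in CD38 pos in every line, and the lines of Cxcl12, Lepr, Kitl, Col1a2 and Bgn go in different directions.

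The other 8 genes did not share this separation. None of the 8 passed an adjusted p of 0.05 in the edgeR quasi-likelihood test, where 0.0135% of all genes tested passed (2 of 14785; 0 without the replicate block). None of the 8 had an unadjusted p under 0.05 either, against 5.08% of all genes, and none passed in DESeq2 or limma-voom. Their adjusted p-values in edgeR ran from 0.929 to 0.997. Of the 8, 6 had a positive and 2 a negative fitted difference, with a median of 0.45 beside 0.00 over all genes tested. Of the 8, 1 (Igfbp5) was higher in CD38 pos in all 3 pairs, where 13.2% of all genes were, and 1 (Col1a1) was lower in all 3, where 11.3% were; counts this small are near the background.

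Cxcl12 was the most abundant of the niche factors and varied more between libraries of a group than between the groups. Its CD38 pos libraries held 151, 11.6 and 115 CPM in pairs 1, 2 and 3, a 13.1-fold range. Its CD38 neg libraries held 104, 22.1 and 25.8 CPM. Both libraries of pair 1 and the CD38 pos library of pair 3 were high, and the lowest value was the CD38 pos library of pair 2. Within pairs the differences were 0.54, -0.92 and 2.15, and the fitted difference was 0.61 (SE 0.41, edgeR unadjusted p = 0.155, adjusted p = 0.929). Without pair 2 Cxcl12 was called higher in CD38 pos, at 1.32 (edgeR adjusted p = 0.000123, in a fit where 0.274% of genes were called), and without pair 3 it was lower, at -0.17 (unadjusted p = 0.594); over its 10 alternatives the adjusted p ran from 0.000123 to 0.9997.

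Lepr, which encodes the leptin receptor that marks perivascular stromal cells, followed the same order of libraries except at the top. It held 3.66, 0.226 and 3.92 CPM in the CD38 pos libraries of pairs 1, 2 and 3 and 3.22, 0.556 and 0.978 CPM in their CD38 neg partners. The low library, again CD38 pos of pair 2, had 4 counts. The groups overlapped, and the fitted difference was 0.53 (SE 0.56, edgeR adjusted p = 0.943); without pair 3 it was -0.28.

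The promoter windows of Cxcl12 and Lepr are shown because both genes had the same 3 highest libraries and the same lowest library; capitals mark matches to the motifs given above. The windows are the 250 bases before the RefSeq start of Cxcl12 (chr6:117168285-117168534, plus strand) and of Lepr (chr4:101717157-101717406, plus strand, the upstream start of those listed):
Cxcl12: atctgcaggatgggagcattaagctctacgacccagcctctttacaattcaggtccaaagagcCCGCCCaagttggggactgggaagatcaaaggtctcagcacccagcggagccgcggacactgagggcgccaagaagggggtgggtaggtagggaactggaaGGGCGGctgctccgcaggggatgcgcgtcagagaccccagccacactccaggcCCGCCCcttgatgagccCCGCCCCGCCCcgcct
Lepr: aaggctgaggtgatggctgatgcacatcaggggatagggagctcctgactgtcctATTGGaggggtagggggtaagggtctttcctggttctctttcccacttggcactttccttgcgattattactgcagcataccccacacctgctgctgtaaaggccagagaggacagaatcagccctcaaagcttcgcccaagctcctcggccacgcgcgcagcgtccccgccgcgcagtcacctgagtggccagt
Cxcl12 has 5 GC boxes, of which the last pair overlap by 1 base, and no other match. Lepr has 1 CCAAT box and no other match, while the window before a second RefSeq start of Lepr (chr4:101717656-101717905, not printed) has 1 GC box and no CCAAT box. These matches are letters in a window and not evidence of a site in use.

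Pair 2 held little of both genes: its libraries carried 7.83% of the CPM of Cxcl12 summed over the 6 libraries and 6.23% of that of Lepr. Over all genes tested the median was 33.4%, and 0.264% of genes (39 of 14785) had under 10%, a threshold chosen after these values were seen. From the lists of stromal markers, other matrix proteins and other collagens, 17 of 70 genes with counts had under 10% in pair 2, and 5 of the 17 could be tested: Adipoq, Ibsp, Tnc, Mmp13 and Col6a1, named after their values were seen. The 3 lists held 14, 16 and 7 tested genes. Only these 5 can be set beside the share of genes tested, since the rest of the 17 were too low to test. Adipoq, the adiponectin gene expressed by fat cells and by Lepr-positive stromal cells, had 2.53%. Ibsp, the bone sialoprotein gene of osteoblasts, had 6.36%, and Tnc, the matrix glycoprotein tenascin C, had 5.75%. Mmp13, a collagenase, had 3.53% and Col6a1, a type VI collagen chain, 2.90%. Adipoq held 6.95, 0.113 and 5.35 CPM in the CD38 pos libraries of pairs 1, 2 and 3 and 5.36, 0.389 and 1.71 CPM in their CD38 neg partners. Its 3 highest libraries and its lowest were those of Cxcl12 and Lepr. Granulocyte and monocyte markers also summed lowest in pair 2, at 80269 and 86642 CPM against 103278 to 177434 CPM in the other 4 libraries; their part in these values was not tested.

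**Figure D2:**
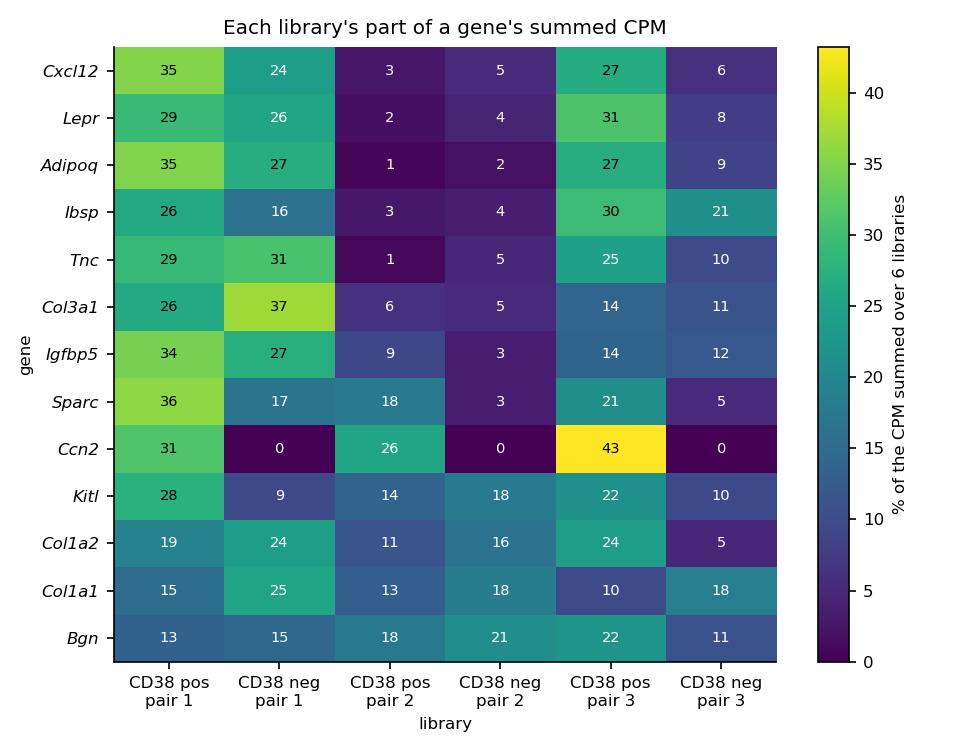
Percentage of each gene's CPM, summed over the 6 libraries, that came from each library (columns), for the 10 genes and for Adipoq, Ibsp and Tnc (rows). Cxcl12, Lepr, Adipoq, Ibsp and Tnc have 7.83% or less in the 2 libraries of pair 2 together, Ccn2 has 0% in each CD38 neg library, and Bgn is spread over all libraries.

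Kitl, the ligand of KIT, was low throughout and its groups overlapped. It held 2.94, 1.47 and 2.32 CPM in the CD38 pos libraries and 1.01, 1.89 and 1.04 CPM in the CD38 neg libraries of pairs 1, 2 and 3. It was higher in CD38 pos in pairs 1 and 3 and lower in pair 2, and the fitted difference was 0.77 (SE 0.49, edgeR adjusted p = 0.929). Its highest library was 2.90 times its lowest, a narrow range beside the 13.1-fold of Cxcl12 and the 17.3-fold of Lepr.

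Among the fibrillar collagens, Col1a1 ran opposite to Sparc. Col1a1, the alpha 1 chain of type I collagen, held 1.26, 1.07 and 0.828 CPM in CD38 pos and 2.08, 1.501 and 1.53 CPM in CD38 neg libraries of pairs 1, 2 and 3. Every CD38 pos library lay below every CD38 neg library, as for 3.19% of all genes, but at 15 to 35 counts per library the fitted difference of -0.69 (SE 0.46) had an edgeR unadjusted p of 0.159 and an adjusted p of 0.929. The opposite arrangement, with every CD38 pos library above, was seen for 3.33% of all genes and for none of the 8; that of Sparc and Ccn2 came with their choice, and nothing is read from it.

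Col1a2, whose product joins that of Col1a1 in the type I collagen triple helix, did not follow it. It held 3.42, 2.04 and 4.30 CPM in CD38 pos and 4.35, 2.95 and 0.856 CPM in CD38 neg libraries. It was lower in CD38 pos in pairs 1 and 2 and higher in pair 3, with a fitted difference of 0.37 (SE 0.51, edgeR adjusted p = 0.955) that was -0.44 without pair 3. Col3a1, the type III collagen gene, was the lowest of the 10 per length, with 5 to 34 counts per library and a fitted difference of -0.02 (SE 0.58, adjusted p = 0.997). Its 2 libraries of pair 1 were the highest and those of pair 2 the lowest, in both groups.

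Bgn, the small proteoglycan biglycan, was steady across libraries, with 18.2, 23.9 and 30.5 CPM in CD38 pos and 19.9, 28.9 and 14.9 CPM in CD38 neg libraries of pairs 1, 2 and 3. Its highest library was 2.05 times its lowest, the narrowest range of the 9 members with counts in every library. The fitted difference was 0.20 (SE 0.27, edgeR adjusted p = 0.955), and it was -0.20 without pair 3. Igfbp5, a binding protein of insulin-like growth factors, held 5.16, 1.41 and 2.10 CPM in CD38 pos and 4.05, 0.5004 and 1.77 CPM in CD38 neg libraries. It was higher in CD38 pos in every pair, by 0.34, 1.31 and 0.23, but the groups overlapped and the fitted difference of 0.61 (SE 0.42) had an edgeR adjusted p of 0.930.

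**Figure D3:**
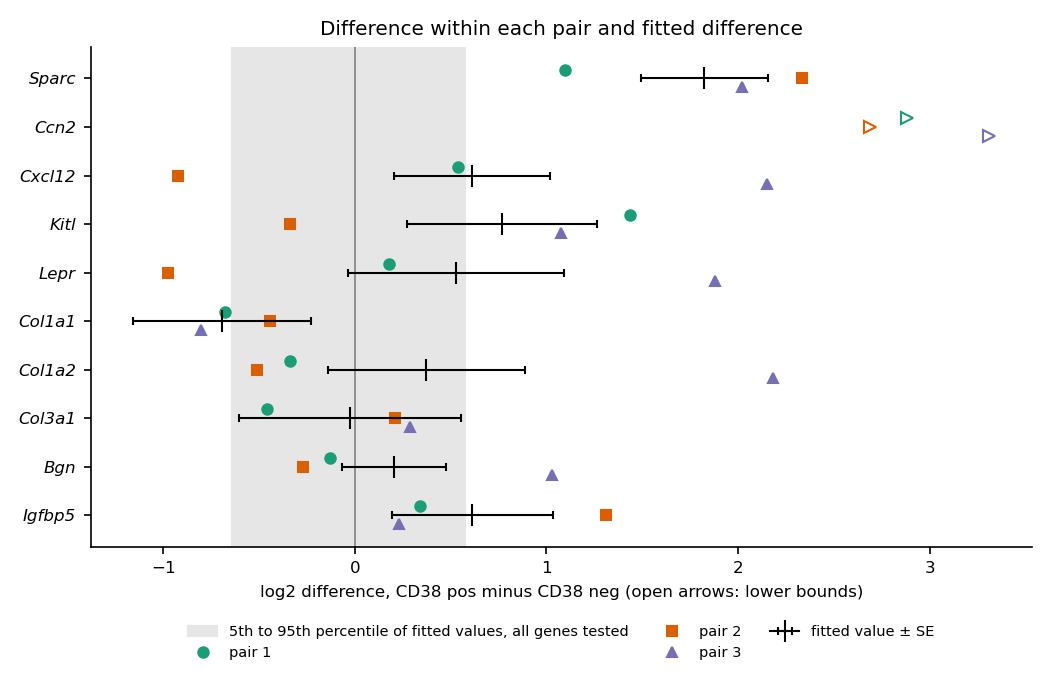
Log2 difference, CD38 pos minus CD38 neg, within pair 1 (circles), pair 2 (squares) and pair 3 (triangles), with the fitted difference ± SE in black; open arrows for Ccn2 are lower bounds from a floor of 3 counts. The grey band spans the 5th to 95th percentile of fitted differences over all genes tested (-0.64 to 0.57), and Sparc, at 1.82, lies to its right.

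Levels were compared between genes per kilobase of exon. Cxcl12 was highest, with a mean of 8.77 CPM per kilobase over the 6 libraries, followed by Bgn with 3.73 and Sparc with 1.86. In pair 2, however, Bgn (3.92 and 4.73 CPM per kilobase) was above Cxcl12 (1.42 and 2.70), so this order holds for the mean and not for each library. The other 7 lay between 0.093 for Col3a1 and 0.416 for Igfbp5, and neighbours in that order, such as Kitl at 0.301 and Lepr at 0.297, did not differ beyond their spread between libraries.

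Other secreted matrix proteins were compared by a list of 30 genes, of which 16 passed the filter. Efemp1 passed it only through the CD38 pos libraries and is left out of these counts. Of the other 15, 5 had an unadjusted edgeR p under 0.05 with higher values in CD38 pos and 0 with lower values, beside 2.47% and 2.61% of all genes; none passed the adjusted threshold. Their median difference was 0.18. The count was 2 of 15 without the replicate block (1.30% of all genes), 4 of 13 without pair 1 (3.52%) and 3 of 15 without pair 3 (1.52%), in each case over genes that reached the filter level in both groups. Without pair 2 it was 6 of 15 (2.21%), and Mgp and Fbln5 passed the adjusted threshold, as 0.274% of all genes did. Of the 14 genes too low to test, 11 had more counts in CD38 pos and 3 fewer, with 302 against 85 counts in all, 74 against 12 of them from Ogn. The share over all genes too low to test was not worked out, and the CD38 pos libraries had counts for more genes in every pair. Nothing about matrix genes is read from these counts.

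Among these, the smallest p-values belonged to Mgp and Fn1. Mgp, matrix Gla protein, an inhibitor of calcification, held 5.87, 1.53 and 6.90 CPM in CD38 pos and 1.61, 0.556 and 1.04 CPM in CD38 neg libraries of pairs 1, 2 and 3. The groups overlapped because CD38 pos of pair 2 lay below CD38 neg of pair 1, and the difference was 2.05 (SE 0.42, edgeR adjusted p = 0.254). Efemp1, the elastic-fibre glycoprotein fibulin-3, held 0.959, 0.962 and 2.81 CPM against 0.238, 0.111 and 0 CPM, given as values with no test. Fn1, fibronectin, held 16.6, 14.7 and 8.28 CPM against 10.1, 7.89 and 3.73 CPM, a difference of 0.91 (SE 0.26, adjusted p = 0.888). The most abundant genes of the list had smaller differences: Emilin1, Spp1 and Ecm1 had 0.42, 0.14 and -0.13, with edgeR adjusted p-values of 0.926, 0.963 and 0.967. Emilin1 was still higher in CD38 pos in all 3 pairs, by 0.09, 0.22 and 0.98 (edgeR unadjusted p = 0.0650), as 13.2% of all genes were.

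Enzymes and chaperones that fold, trim and cross-link collagen ranged from genes as low as the collagens to some of the most abundant of any list. Serpinh1, the collagen chaperone, was at 0.430 CPM per kilobase over the 6 libraries, beside 0.210 for Col1a1, whereas Ppib, a general prolyl isomerase, was at 94.4. P4hb, a subunit of the prolyl 4-hydroxylase that also serves as a general disulfide isomerase, was at 1333 ± 362 CPM (SD, n = 3) in CD38 pos and 966 ± 163 CPM (SD, n = 3) in CD38 neg. Of 17 tested genes of this group, 3 had an unadjusted edgeR p under 0.05 with higher values in CD38 pos (Plod3, Pcolce and P3h2, at 0.65, 1.502 and 1.18) and 0 with lower values; none passed the adjusted threshold, and there was 1 of 18 without pair 3, 1 of 17 without the replicate block and 1 of 16 without pair 1. Without pair 2 there were 2 of 16. The median difference of the 17 in the main fit was 0.41. Among 7 other collagens tested, Col6a1 had 2.27 (unadjusted p = 0.0188, adjusted p = 0.925), while the more abundant Col5a1, Col4a1 and Col4a2 had 0.15, -0.16 and -0.27. Col6a1 was not higher in pair 2, where it held 0.0566 CPM in CD38 pos and 0.111 CPM in CD38 neg. Without pair 2, 2 of 8 other collagens had an unadjusted p under 0.05 with higher values, and without pair 3 none of 8 did and 1 had lower values. Of all genes tested, 2.47% had higher and 2.61% lower values at such a p in the main fit. The share with higher values was 3.52% without pair 1, 2.21% without pair 2, 1.52% without pair 3 and 1.30% without the replicate block.

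Relatives and known partners of Sparc and Ccn2 were mostly near the detection limit. Of the 7 relatives of Sparc, 2 could be tested, Fstl1 and Smoc1, with differences of -0.12 and 0.22. Among those too low to test, Sparcl1 had 37 counts over the CD38 pos and 7 over the CD38 neg libraries, and Smoc2 had 26 and 2. CD38 pos of pair 2 alone held 25 counts of Sparcl1 and 22 of Smoc2. Spock2 had 8 and 9, and Spock1 and Spock3 had 0 in all libraries. Ccn1, the relative of Ccn2 that YAP and TEAD also control, had 17 counts over the CD38 pos and 7 over the CD38 neg libraries, Yap1 had 24 and 25, and Ankrd1 had 0 counts in all libraries. In the list of CCN genes, YAP, TAZ, TEAD factors and their targets, 3 of 8 tested genes had an unadjusted edgeR p under 0.05 with higher values in CD38 pos (Amotl2 at 0.75, Ccn3 at 1.14 and Axl at 0.49), 0 with lower values, and none passed the adjusted threshold. Without pair 3 none of 7 had such a p, without the replicate block 1 of 8 did, and without pair 1 or pair 2 there were 2 each. Of all genes tested, 2.47% had higher and 2.61% lower values at such a p in the main fit. The share with higher values was 1.52% without pair 3, 1.30% without the replicate block, 3.52% without pair 1 and 2.21% without pair 2.

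Receptors for the members' products were measured in the same libraries. Of 17 tested, 1 had an unadjusted edgeR p under 0.05, beside 5.08% of all genes. It was Kit, the receptor of KIT ligand, at -0.90 (SE 0.36, adjusted p = 0.925), with 556 CPM in CD38 neg of pair 2 and 110 to 227 CPM in the other 5 libraries. Without pair 3 Kit was called lower, at -1.504 (SE 0.33, edgeR adjusted p = 0.0338, where 0.0808% of genes were called), and without pair 2 it had no unadjusted p under 0.05. Cxcr4, the receptor of CXCL12, held 21.6, 6.34 and 7.94 CPM in CD38 pos and 15.5, 13.3 and 13.6 CPM in CD38 neg libraries (difference -0.44, adjusted p = 0.930). Itgb1, the beta 1 integrin chain of collagen receptors, and Lair1, a collagen receptor of leukocytes, had differences of -0.01 and -0.05. In the insulin-like growth factor axis Igfbp4 had 0.59 (unadjusted p = 0.0139, adjusted p = 0.925), and Igf1r and Igf1 had -0.18 and 0.11.

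**Figure D4:**
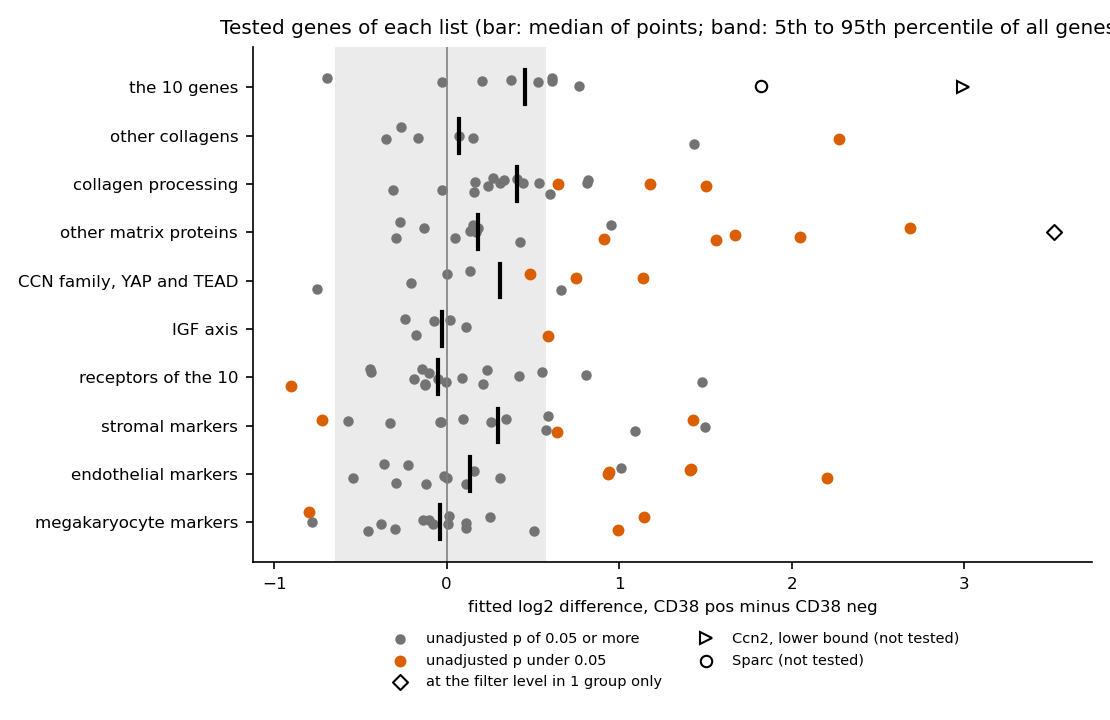
Fitted log2 difference, CD38 pos minus CD38 neg, of each tested gene (points) in 10 lists, with each list's median as a bar; orange marks an unadjusted p under 0.05, open symbols, left out of the medians, are Sparc, the lower bound of Ccn2, and Efemp1, which passed the filter through 1 group only. Other matrix proteins and endothelial markers have 5 orange points each, all on the higher side, where 2.47% of all genes tested had such a p.

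Markers of other cells were read beside these values. Of all genes tested, 2.47% had higher and 2.61% lower values in CD38 pos at an unadjusted edgeR p under 0.05. The share with higher values was 3.52% without pair 1, 2.21% without pair 2, 1.52% without pair 3 and 1.30% without the replicate block. Without pair 2, 0.274% of all genes passed the adjusted threshold. Of 16 endothelial markers tested, 5 had an unadjusted edgeR p under 0.05 with higher values in CD38 pos and 0 with lower values, and the 3 smallest p-values were those of Ramp2, Cldn5 and Sox18, at 2.20, 1.42 and 0.94 (adjusted p = 0.125, 0.451 and 0.925). Without pair 3 the count was 2 higher and 2 lower, without the replicate block it was 3 higher, and without pair 2 Cldn5 passed the adjusted threshold. Over endothelial markers at the filter level in both groups, 5 of 15 were higher without pair 1 and 4 of 16 without pair 2, with 0 lower in each. The summed level of all 20 endothelial markers overlapped, at 414 to 711 CPM in CD38 pos and 501 to 697 CPM in CD38 neg, and Cdh5, the defining cadherin of endothelium, had 22 and 8 counts. Among 16 megakaryocyte and platelet markers 2 had higher values at an unadjusted p under 0.05, Vwf at 1.15 and Selp at 0.99 (adjusted p = 0.293 and 0.888), and 1 had lower values, Mmrn1 at -0.80; without pair 2 Vwf passed the adjusted threshold. Their sum was 751 to 1337 CPM in CD38 pos and 796 to 1426 CPM in CD38 neg, and Pf4, a platelet granule gene, had -0.46. Stromal markers summed to 575 to 884 CPM and 699 to 777 CPM, of which most came from Angpt1 and Vcam1. Of 14 tested, Lpl and Cdh11 had higher values (0.64 and 1.43) and Angpt1 lower values (-0.72) at an unadjusted p under 0.05, and none passed the adjusted threshold. Without the replicate block none had such a p. Over stromal markers at the filter level in both groups, 3 of 12 were higher and 1 lower without pair 1. The counts were 3 of 14 and 0 without pair 2, and 1 of 14 and 2 without pair 3. Other lists had lower values in CD38 pos. Of 14 B and plasma cell markers, 3 had lower values at an unadjusted p under 0.05, the antibody genes Jchain, Igkc and Ighm at -4.26, -3.07 and -1.19 (edgeR adjusted p = 0.0701, 0.125 and 0.695). The sum of all 14 did not overlap, at 977 to 1466 CPM in CD38 pos and 1671 to 3446 CPM in CD38 neg, and all 3 antibody genes passed the adjusted threshold without pair 2. This sum is not separate from those 3 genes: in CD38 neg of pair 3, Jchain, Ighm and Igkc held 938, 725 and 1056 of the 3446 CPM. Over the 14 markers, 6 fitted differences were positive and 8 negative. Of all single genes tested, 3.19% had every CD38 pos library below every CD38 neg library. Of the 14 HSC markers, 4 had lower values (Hlf, Meis1, Ly6a and Kit, at -0.79, -0.63, -0.50 and -0.90) and 1 higher values, Ctnnal1 at 0.46, none past the adjusted threshold; without pair 2 the count was 0 lower and 2 higher, and without pair 3 it was 5 lower. Their sum overlapped, at 1167 to 2192 CPM and 1408 to 2774 CPM. The part of these cell types in the differences of Sparc and Ccn2 was not tested.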

How the data were processed

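The authors deposited, for each of 6 libraries, whole-number read counts by Ensembl gene. Per the submitters' processing notes, cutadapt, STAR and HTSeq 0.6.1p1 were used with GRCm38 (mm10); the annotation release and the strand setting are not given in the sources used here, so sense and antisense reads cannot be told apart with certainty. Symbols matched 49326 of 49585 identifiers. Coordinates and exon lengths came from GENCODE M21 (GRCm38), promoter windows from RefSeq (GRCm38.p6).

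In R 4.3.3, genes were kept with filterByExpr, scaled by TMM and tested with edgeR 4.0.16 (quasi-likelihood F-test, pair plus population, Benjamini-Hochberg adjustment over 14785 genes, threshold 0.05). The edgeR procedure was also run on simulated counts that held no pair effect, and nothing about these libraries is read from that run. A prior count of 2 was added for the log2 CPM of pair differences. The design text gives the pairs; deviations of paired libraries from their group means correlated at 0.34, 0.12 and 0.24. Nothing says whether paired libraries share mice, so p-values measure the spread between these pools. The members and gene lists were chosen with earlier results of these data known. Named genes were all members and, per list, the 3 most abundant and up to 3 with the smallest unadjusted p under 0.05; further names are defining markers, relatives, or genes picked with their values known. Some marker results are not reported here. Alternatives used DESeq2 1.42.0, limma-voom (limma 3.58.1), other scalings and filters, no block, and each pair left out.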

Additional observations from a re-analysis of the deposited data

How the results depend on the processing

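The number of genes past the adjusted threshold, 2 with the replicate block, was 0 without the replicate block (417 at an unadjusted p under 0.05) and 0 with library totals (595), 11 in DESeq2, 7 with DESeq2 size factors, 13 with a mean of at least 10 counts, 80 with no filter, and 2 to 41 when a pair was left out; the cause was not tested. Of the 8 members other than Sparc and Ccn2, 0 passed under each setting, the fit without the replicate block included, except that 1 (Cxcl12) passed without pair 2, so leaving out a pair gave 0 to 1. The median difference of the 10 members, the chosen Sparc and Ccn2 included, was 0.57, and with a pair left out it lay between -0.19 and 0.92. Sparc stayed between 1.54 and 2.24 under its 10 alternatives, and Col1a1 between -0.81 and -0.61. Since Sparc was chosen as higher in every pair, leaving out a pair could not reverse it, and nothing is read from its range. The sign of Cxcl12 (-0.17 to 1.32 when a pair was left out), Lepr (-0.28 to 1.001), Col1a2 (-0.44 to 0.84), Bgn (-0.20 to 0.44) and Col3a1 (-0.22 to 0.31, and 0.012 in DESeq2) depended on the pairs kept or the tool, and the cause was not tested. The list counts without a pair, without the block or without genes let in by 1 group were added after the data were seen. At this depth a count of 0 allowed up to 3 counts (0.166 to 0.183 CPM). Differences far above that limit were also not called: Cxcl12, with group means of 92.7 CPM in CD38 pos and 50.8 CPM in CD38 neg, had an edgeR unadjusted p of 0.155.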
